A study of Haberlea rhodopensis with 10 samples.

Results

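Leaf transcriptomes of the resurrection plant Haberlea rhodopensis were compared between fully rehydrated leaves (R) and severely dehydrated leaves (D20). The comparison covered every assembled unigene, a transcript sequence built from the reads, that reached an FPKM of 1, a fragment count scaled to transcript length and library size, in at least 2 of the 10 libraries, which left 85267 of 142473 unigenes. Each of 5 stages had 2 libraries from mature, fully expanded leaves of pot-grown plants that had been propagated in vitro and kept under a 16-h photoperiod: well-watered leaves (F, 100% relative water content in the sample labels and 90% in the design text), slightly dehydrated leaves (D75, 75%), D20 (20%), fully dry leaves (DT, under 5% in the labels and 6% in the design text) and R (100% in the labels and 90% in the design text). R leaves did not pass straight from D20. The plants needed at least 8 days without water to reach full dryness, were kept dry for 10 days, and recovered for a week after water was given again. The labels give no transgene, strain or chemical treatment for any group. At least 4 plants were sampled per point, but which plants went into which library is not stated, so p-values measure the spread between libraries, which may be technical.

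Resurrection plants survive the loss of nearly all cell water in their leaves. In H. rhodopensis, as in other species that keep their chlorophyll, drying stops photosynthesis, and leaves fill with sugars of the raffinose family, late embryogenesis abundant (LEA) proteins that are thought to shield membranes and enzymes, and early light-induced proteins (ELIPs) that bind pigment in the thylakoids and limit light damage. Recovery after watering needs the reverse: light-harvesting proteins, the carbon-fixing enzyme RuBisCO, cell walls that can extend again, and water channels. D20 was the drying stage at which these leaves had crossed into severe water loss, and the comparison asks which transcripts stood at a different level once the leaf had been refilled.

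The 4 libraries were of unequal depth. D20 had 12539577 and 12734565 fragments on unigenes in replicates 1 and 2, and R had 8570553 and 8725660. Replicate libraries correlated at r = 0.955 (D20) and 0.934 (R) over log2 values of the tested unigenes, and pairs across the 2 stages at 0.637 to 0.689. The raw reads of the D75 and D20 libraries had one length and those of F, DT and R another, so read length and stage cannot be told apart between R and D20. For that reason the main gene groups are set beside D75 against DT, another comparison of wetter with drier leaves that shares no library with R against D20 and has the read lengths the other way round. Numbers of unigenes given as higher or lower at D75 than at DT are those called at the same threshold. Both comparisons came from the same fit over all 10 libraries and share its estimate of spread per unigene. Unigenes of the chloroplast genome held 1.32% and 1.79% of the D20 fragments against 0.522% and 0.709% at R, and unigenes with a ribosomal RNA hit held 2.77% and 10.0% against 5.95% and 4.32%. In bulk leaves, fewer cells of a type and less RNA per cell cannot be told apart.

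Short stretches of the transcripts that carry the comparison are given by the primers the study designed for its quantitative PCR. The pairs below belong to unigenes of a chlorophyll-synthesis enzyme, a photosystem I subunit, an early light-induced protein, a LEA protein and a sugar-synthesis enzyme, and they are printed 5′ to 3′ in lower case, forward primer first.

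CL15566.Contig1 protochlorophyllide reductase forward: aatcgtcggctccatcac
CL15566.Contig1 protochlorophyllide reductase reverse: cgaagtctcctccatctatca
Unigene10006 photosystem I subunit II (psaD1) forward: ataaaggctatggcagagga
Unigene10006 photosystem I subunit II (psaD1) reverse: ggcgaagatgggagaagg
Unigene32083 early light-induced protein 1 forward: tggttgaggatggtggtg
Unigene32083 early light-induced protein 1 reverse: tgtccgtagcctttgtgc
CL12215.Contig1 LEA protein forward: aaggtgggaggaggaaga
CL12215.Contig1 LEA protein reverse: gtgacggctgtagtgctg
Unigene42048 galactinol synthase 2 forward: ctggaagaggtgaaggtggtc
Unigene42048 galactinol synthase 2 reverse: cggtggcaatgaaatgaac

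Their values are given as FPKM divided by each library's normalisation factor (scaled FPKM), listed for replicates 1 and 2 of a stage in that order. Protochlorophyllide reductase CL15566.Contig1, which makes chlorophyllide in the light, stood at 312 and 334 (F), 47.0 and 72.1 (D75), 0.0684 and 0.350 (D20), 1.38 and 1.77 (DT), 189 and 101 (R). The photosystem I subunit Unigene10006 stood at 2164 and 1644 (F), 714 and 1604 (D75), 291 and 346 (D20), 551 and 585 (DT), 2489.7 and 2346 (R). Both were lowest at D20. The ELIP Unigene32083 stood at 1.54 and 1.05 (F), 59.5 and 169.5 (D75), 2060.5 and 1754 (D20), 2114 and 3206 (DT), 111 and 182 (R), so that its R libraries lay below D20 and DT and above F. The LEA unigene CL12215.Contig1 stood at 4.03 and 1.80 (F), 2.78 and 24.3 (D75), 1807 and 1762 (D20), 501 and 880.2 (DT), 35.6 and 44.2 (R). Galactinol synthase 2 Unigene42048, the first enzyme of raffinose synthesis, stood at 0.120 and 0.328 (F), 0.358 and 2.33 (D75), 34.0 and 44.9 (D20), 33.0 and 30.1 (DT), 1.95 and 2.94 (R). Of the 20 primer unigenes, all of which passed the filter, 2 were higher at R, 8 were lower and 10 did not pass the test.

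Across all tested unigenes, 2105 (2.47%) were differentially expressed genes (DEGs) with higher levels at R and 905 (1.06%) with lower levels, where a DEG had a fold of 2 or more and an adjusted p no higher than 0.001 (edgeR's quasi-likelihood test with Benjamini-Hochberg adjustment). The 2105 came from 1683 assembly clusters and the 905 from 684, and contigs of one cluster may share reads. At an adjusted p below 0.05, the threshold used for single unigenes and gene groups from here on, 12744 unigenes (14.9%) rose, that is, were higher at R than at D20, and 9337 (11%) fell. The median log2 difference over all tested unigenes was 0.19, and 0.00 with unigenes absent from 1 stage set at their bound. The strict DEG count rested on having both D20 libraries: it was 0 in either direction without D20 replicate 1 or without D20 replicate 2, 393 and 1 without R replicate 1, and 740 and 14 without R replicate 2. It grew to 6837 and 4822 without D75 replicate 1 and to 6747 and 5093 without D75 replicate 2, and lay between 1219 and 1377 higher and 338 and 541 lower without an F or DT library. All 2105 and all 905 DEGs kept their direction and an adjusted p below 0.05 when any 1 of the 10 libraries was left out. At that threshold the counts over all unigenes with 1 D20 or R library left out were 5539 to 8186 higher (fewest without D20 replicate 1) and 2696 to 4375 lower (fewest without R replicate 1).

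DEGs were chosen on their D20 and R values, so a contrast between those 2 stages is built in. Those that rose were nearly silent at D20. Their median scaled FPKM was 12.1 at F, 5.82 at D75, 0.283 at D20, 0.738 at DT and 11.7 at R. Of the 2105, 311 had no fragment in either D20 library, a share near that of all tested unigenes (10239 of 85267). Of the 311, 16 had none at D75 either, against 1334 of the 10239. The DEGs that fell ran the other way, with a median of 1.07 at F, 2.11 at D75, 22.1 at D20, 10.8 at DT and 1.67 at R. Of the 905, 7 had no fragment at R, against 4717 of all tested unigenes. Between D75 and DT, 2022 of the 2105 (96.1%) were higher in the wetter leaf, against 56.2% of all tested unigenes, and 1650 of them were called higher at D75, a call made for 11% of all tested unigenes. Of the 905, 847 (93.6%) were lower at D75 than at DT, against 42.5% of all, and 678 were called lower, a call made for 8.31% of all. The opposite calls numbered 27 and 13. As both comparisons share an estimate of spread, the choice of DEGs and the calls between D75 and DT are not independent. Unigenes without any database hit were 4.28% of the risen and 3.54% of the fallen DEGs and 28.0% of all tested unigenes. At R beside F, 25 unigenes of all tested were higher and 8 lower at an adjusted p below 0.05.

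**Figure D1:**
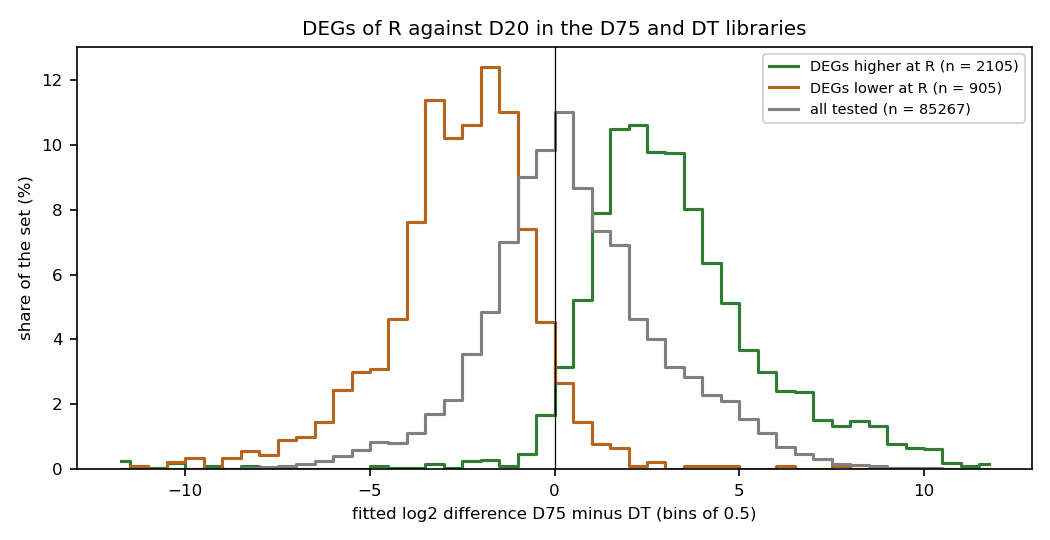
Log2 difference between D75 and DT (x axis) of the DEGs higher at R than D20, the DEGs lower at R than D20 and all tested unigenes, as the percentage of each set per bin (y axis). The risen DEGs lie to the right of 0 in 96.1% of cases and the fallen DEGs to the left in 93.6%, against 56.2% and 42.5% of all tested unigenes.

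Of the 12 well-expressed DEGs with the largest rise, 9 had no fragment at D20. Ranking by fold favours such unigenes, and these 9 passed the level filter on their R values alone, so their absence at D20 follows from the choice. Peroxidase 9 (Unigene24903), a secreted peroxidase, had no fragment at D20 and stood at 117 and 52.5 at R, at least 344-fold higher. Probable pectate lyase 5 (CL9920.Contig1), which cuts pectin in the wall, was absent at D20 and stood at 82.5 and 34.5 at R, at least 297-fold higher. CONSTANS-LIKE 2 (CL14402.Contig2), a zinc finger regulator, and polyphenol oxidase II (CL6698.Contig5), which oxidises phenols, were likewise absent at D20 and each at least 256-fold higher at R. These bounds set 3 fragments per library as the floor at D20. Dirigent protein 16 (CL2132.Contig1), of a family that steers the coupling of lignin and lignan precursors, was at least 208-fold higher, chitin-binding lectin 1 (CL9724.Contig4) at least 199-fold, a blue copper protein (Unigene43466) at least 185-fold, glycerol-3-phosphate acyltransferase 8 (CL8538.Contig1), a cutin-synthesis enzyme, at least 151-fold and pectinesterase 54 (Unigene42839) at least 148-fold. The R libraries of these 9 unigenes also exceeded both DT libraries.

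A further 3 of the largest risers had 1 or 2 fragments over both D20 libraries. Protein E6 (CL10319.Contig5), first described from cotton fibre, went from 0.0750 and 0 to 449 and 110.5, a ratio of 7239.5 (95% interval 1299 to 285989). Pectate lyase 18 (Unigene32937) went from 0.113 and 0 to 237 and 223, a ratio of 4002 (95% interval 1108 to 33053). Anthocyanidin 3-O-glucosyltransferase 5 (Unigene876), which adds glucose to flower and leaf pigments, went from 0 and 0.0581 to 136 and 103, a ratio of 4139.5 (95% interval 742 to 163545). These intervals cover counting error only. Unigene876 was, unlike the other 11, which were called higher at D75, lower at D75 (0.187 and 0.513) than at DT (6.75 and 0.831), with a log2 difference of -3.42 (adjusted p = 0.015).

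**Figure D2:**
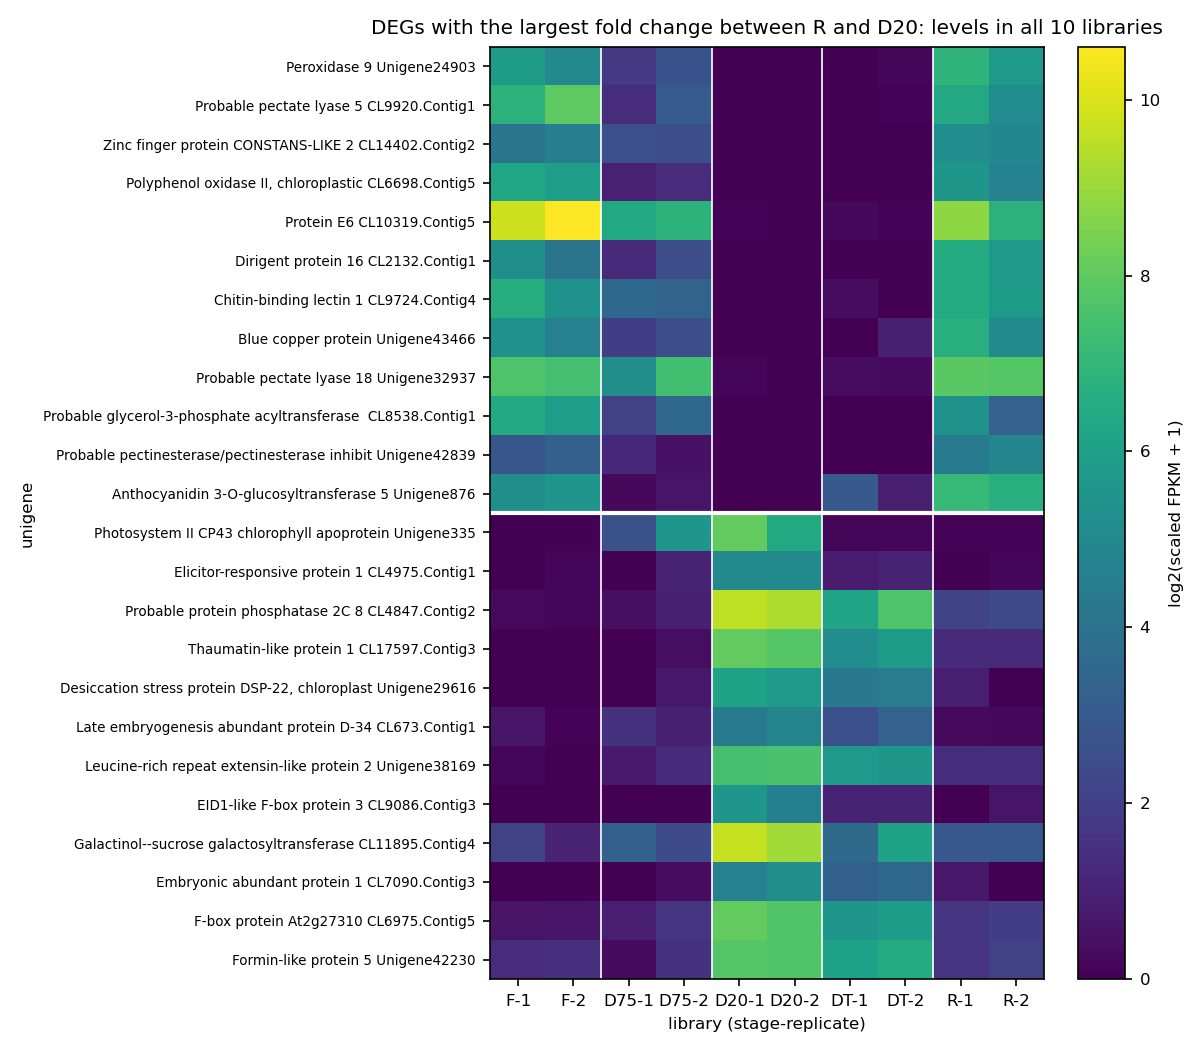
Scaled FPKM, on a log2(value + 1) colour scale, of the 12 DEGs with the largest rise and the 12 with the largest fall from D20 to R (rows) in the 10 libraries (columns, by stage and replicate). The risen DEGs are dark at D20 and bright at R, as for Peroxidase 9 with 0 and 0 at D20 against 117 and 52.5 at R, and the fallen DEGs are bright at D20 and dark at R.

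The largest fall, in a CP43 chlorophyll apoprotein, is described with the photosystems. Protein phosphatase 2C 8 (CL4847.Contig2) went from 777 and 633 to 3.49 and 4.32 (log2 difference -7.49 ± 0.72, adjusted p = 7e-05), and its sister contig CL4847.Contig3 from 2064 and 1561 to 10.0 and 11.2 (log2 difference -7.42 ± 1.02, adjusted p = 0.00044). Some phosphatases of this class hold back abscisic acid signalling in Arabidopsis, and the annotation does not say whether this one belongs to them. Thaumatin-like protein 1 (CL17597.Contig3) went from 261 and 222 to 1.42 and 1.49 (log2 difference -7.37 ± 0.73, adjusted p = 0.0001). F-box protein At2g27310 (CL6975.Contig5) went from 262 and 209.6 to 2.11 and 2.82 (log2 difference -6.57 ± 0.53, adjusted p = 4e-05). Leucine-rich repeat extensin-like protein 2 (Unigene38169) went from 179 and 185 to 1.59 and 1.63 (log2 difference -6.80 ± 0.52, adjusted p = 4e-05). Formin-like protein 5 (Unigene42230), an actin nucleator, went from 222 and 211 to 2.11 and 3.15 (log2 difference -6.35 ± 0.71, adjusted p = 0.00013). LEA protein D-34 (CL673.Contig1) went from 20.2 and 27.7 to 0.194 and 0.183 (log2 difference -6.94 ± 0.74, adjusted p = 0.0001).

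Some fallen unigenes were all but gone at R. Desiccation stress protein DSP-22 (Unigene29616), a chloroplast protein of the ELIP type, went from 68.7 and 52.8 to 0.867 and 0, with 2 fragments over both R libraries and a ratio of R to D20 of 0.00692 (95% interval 0.000834 to 0.0252). Elicitor-responsive protein 1 (CL4975.Contig1) went from 31.8 and 32.7 to 0 and 0.0955, a ratio of 0.00152 (95% interval 3.85e-05 to 0.00852). This protein had already been low at DT (0.806 and 1.05), and D75 against DT did not pass the test (log2 difference -0.80, adjusted p = 0.52). Embryonic abundant protein 1 (CL7090.Contig3) went from 23.3 and 37.0 to 0.596 and 0, a ratio of 0.00962 (95% interval 0.00197 to 0.0283). EID1-like F-box protein 3 (CL9086.Contig3) went from 45.9 and 22.8 to 0 and 0.511, a ratio of 0.00763 (95% interval 0.000192 to 0.0432).

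The antenna of the photosystems rose. Of 43 chlorophyll a-b binding proteins, which feed light energy to the reaction centres, 32 rose and 0 fell, with a median log2 difference of 5.21 (4.85 with unigenes absent at D20 at their bound). Their summed level was 17998 and 20668 (F), 7519 and 15736 (D75), 498 and 856 (D20), 2522 and 2627 (DT), 18234 and 14326 (R). One R sum lay between the F sums and the other below both, and no member passed the test between R and F. Chlorophyll a-b binding protein 7 (CL14927.Contig1) went from 44.0 and 112 to 2306 and 2209.9 (log2 difference 4.85 ± 0.62, adjusted p = 0.00028). Protein 8 (CL3636.Contig1) went from 131 and 190.0 to 1949 and 1703 (log2 difference 3.51 ± 0.51, adjusted p = 0.00061). Protein 40 (Unigene9580) went from 153 and 291 to 2066 and 1794 (log2 difference 3.12 ± 0.61, adjusted p = 0.0033), a call that was lost without D20 replicate 1 (adjusted p = 0.056). The number of risen members was 29 to 31 with 1 of the 4 libraries left out. In D75 against DT, 26 were higher and 1 lower in the wetter leaf.

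Subunits of the photosystems and the electron transport chain rose more often than they fell. Of 141 unigenes on that list 87 rose and 8 fell (median log2 difference 2.97, and 60 higher and 1 lower at D75 than at DT). All 8 that fell were chlorophyll apoproteins of the core, described next, and of the other 127 members 86 rose and 0 fell. Among the risen were 14 of 19 photosystem I reaction center subunits and 11 of 19 oxygen-evolving enhancer proteins, which hold the water-splitting site of photosystem II, and neither family had a member that fell. Oxygen-evolving enhancer protein 1 (CL4348.Contig1) stood at 4924 and 2806 (F), 2409 and 2427 (D75), 161 and 313 (D20), 679.7 and 518 (DT), 5216 and 4373 (R) (log2 difference 4.34 ± 0.66, adjusted p = 0.00078). Enhancer protein 3-2 (CL11352.Contig1) went from 24.5 and 48.5 to 2355 and 1731 (log2 difference 5.81 ± 0.64, adjusted p = 0.00012). PsaK (Unigene28732), a photosystem I subunit, went from 46.5 and 65.7 to 2646 and 1831 (log2 difference 5.32 ± 0.66, adjusted p = 0.00024). In these, as in all 2105 risen DEGs, the R and D20 libraries did not overlap, which also held for 60520 of all 85267 tested unigenes. The photosystem II 10 kDa polypeptide (Unigene1712) went from 906 and 1019 to 9053 and 7943 (log2 difference 3.14 ± 0.62, adjusted p = 0.0034). The call was lost without D20 replicate 1 (adjusted p = 0.05).

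The core chlorophyll proteins of the same list, which the chloroplast itself encodes, went the other way. Of 14 unigenes for the CP43, CP47 and P700 apoproteins, which carry the core chlorophylls, 8 fell and 1 rose. Their summed level was 41.1 and 25.4 (F), 85.6 and 360.3 (D75), 1207 and 761 (D20), 169.7 and 201 (DT), 53.6 and 119.9 (R). A CP43 unigene (Unigene335) went from 267 and 84.8 to 0.0755 and 0.0711 (log2 difference -11.17 ± 1.23, adjusted p = 0.00013). This unigene was also high at D75 (5.10 and 45.9) against DT (0.150 and 0.0948), so it was high in the libraries of one read length and low in those of the other. A second CP43 contig (CL844.Contig4, chosen after its values were seen) went from 70.2 and 44.8 to 5.80 and 7.59 (log2 difference -3.10 ± 0.57, adjusted p = 0.0023), while D75 (16.3 and 23.8) against DT (19.1 and 19.3) did not pass the test (log2 difference 0.08, adjusted p = 0.94). Over the family, 5 unigenes were higher at D75 than DT and 0 lower. Of all 161 tested unigenes matched to the chloroplast genome, 30 fell and 13 rose between D20 and R, while 50 were higher and 9 lower at D75 than at DT. The part of read length in these differences was not tested.

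Carbon fixation genes rose more often than they fell. Of 82 Calvin cycle unigenes 47 rose and 1 fell (median log2 difference 3.13, or 2.85 with bounds, and 41 higher and 2 lower at D75 than at DT), the risen members numbering 35 to 41 with 1 of the 4 libraries left out, fewest without D20 replicate 1. All 6 RuBisCO small chain unigenes, from 3 clusters, rose, and their summed level was 15045 and 10655 (F), 6722 and 9849 (D75), 74.9 and 81.5 (D20), 992 and 539 (DT), 16578 and 16428 (R). Small chain 2 (CL7824.Contig2) stood at 9142 and 6215 (F), 3753 and 4824 (D75), 32.4 and 45.7 (D20), 558 and 321 (DT), 7514 and 6958 (R) (log2 difference 7.53 ± 0.76, adjusted p = 8.3e-05). The small chain of clone 512 (CL14024.Contig2) stood at 1715 and 1205 (F), 80.0 and 1743 (D75), 12.7 and 11.5 (D20), 109.7 and 60.7 (DT), 3088 and 3342 (R) (log2 difference 8.05 ± 1.21, adjusted p = 0.00072), with the D75 libraries far apart. The member that fell was a chloroplastic transketolase (Unigene43041, chosen after its values were seen), from 243 and 138 to 26.9 and 50.7 (log2 difference -2.29 ± 0.64, adjusted p = 0.021), a call lost with 1 of 3 libraries left out (adjusted p = 0.13 without D20 replicate 1, 0.18 without R replicate 1, 0.06 without R replicate 2).

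Photorespiration, which salvages the product of RuBisCO's reaction with oxygen, rose more often than it fell: 34 of 81 unigenes rose and 4 fell (25 higher and 2 lower at D75 than at DT), the risen members numbering 19 to 26 with 1 of the 4 libraries left out, fewest without D20 replicate 1. Peroxisomal (S)-2-hydroxy-acid oxidase (CL10556.Contig4), which oxidises glycolate, went from 193 and 296 to 1921 and 2105 (log2 difference 3.04 ± 0.55, adjusted p = 0.0022). Glutamate-glyoxylate aminotransferase 2 (Unigene14596) went from 32.8 and 60.7 to 590.3 and 732 (log2 difference 3.82 ± 0.53, adjusted p = 0.00044). Catalase isozyme 3 (CL7689.Contig3), which clears the peroxide made on the way, went from 86.2 and 174 to 2082 and 1462 (log2 difference 3.77 ± 0.72, adjusted p = 0.0027). Chlorophyll synthesis had 24 of 67 unigenes risen and 2 fallen (17 higher and 6 lower at D75 than at DT), including protochlorophyllide reductase, of which 4 of 5 rose. Its contig CL15566.Contig2 stood at 1004 and 496 (F), 277 and 197 (D75), 0.841 and 1.46 (D20), 11.1 and 3.78 (DT), 734 and 490.3 (R) (log2 difference 9.05 ± 0.82, adjusted p = 5.3e-05), and CL4541.Contig1 went from 3.71 and 21.3 to 685 and 541 (log2 difference 5.62 ± 0.85, adjusted p = 0.00073).

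Proteins of the chloroplast's own ribosomes rose more often than they fell between D20 and R. Of 213 chloroplast ribosomal proteins 104 rose and 12 fell (median log2 difference 1.75), the risen members numbering 59 to 76 with 1 of the 4 libraries left out, fewest without D20 replicate 2. Between D75 and DT, 31 of the same unigenes were higher and 17 lower, with a median log2 difference of 0.39 against 0.32 for all tested unigenes, so a rise like that from D20 to R was not seen there. Protein L29 of the 50S subunit (Unigene33471) went from 104 and 113 to 369.6 and 334 (log2 difference 1.70 ± 0.42, adjusted p = 0.011). This call was lost with either D20 library or R replicate 1 left out (adjusted p from 0.076 without R replicate 1 to 0.096 without D20 replicate 1). Protein L15 (Unigene38335) went from 114 and 99.8 to 485 and 468 (log2 difference 2.16 ± 0.42, adjusted p = 0.0033). The fallen members included all 6 contigs of 30S protein S14, a single cluster, whose summed level was 36.1 and 41.7 at D20 and 5.52 and 5.69 at R. Cytosolic ribosomal proteins showed little of this: of 977 unigenes 104 (10.6%) rose and 39 (3.99%) fell (83 higher and 18 lower at D75 than at DT), both under the shares of all tested unigenes, with 15 to 45 risen when 1 of the 4 libraries was left out. The summed cytosolic level was 22292 and 20426 at D20 and 22276 and 22143 at R. The 40S proteins S25 (CL375.Contig2, 268 and 239 at D20 and 334 and 328 at R) and S15 (CL12359.Contig1, 527 and 520.0 (D20), 375 and 352 (R)) did not pass the test.

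**Figure D3:**
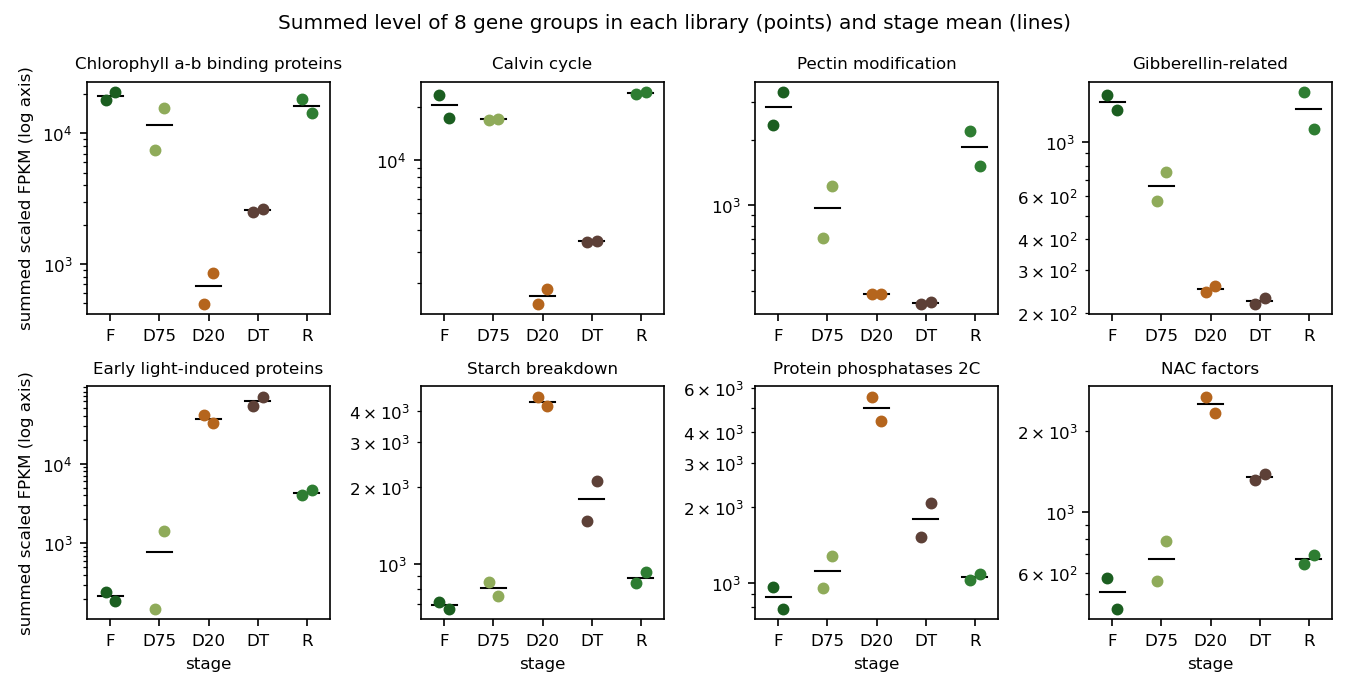
Summed scaled FPKM (y axis, log scale) of 8 gene groups in the 10 libraries, by stage in order of sampling (x axis), with 1 point per library and a line at the stage mean. The upper row holds groups low at D20, as chlorophyll a-b binding proteins at 498 and 856 there and 18234 and 14326 at R, and the lower row groups high at D20, of which early light-induced proteins alone are higher still at DT.

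Genes that loosen the cell wall rose more often than they fell. Expansins and xyloglucan enzymes had 36 of 74 unigenes risen and 7 fallen (median log2 difference 3.58, or 1.77 with the 23 unigenes absent at D20 at their bound, and 19 higher and 4 lower at D75 than at DT), the risen members numbering 19 to 26 with 1 of the 4 libraries left out, fewest without D20 replicate 1. Of 32 expansin-A unigenes, which slip the bonds between wall polymers, 20 rose and 2 fell. Expansin-A8 (Unigene17772) stood at 470.4 and 521 (F), 55.4 and 193 (D75), 0.249 and 0.0849 (D20), 0.0984 and 0.187 (DT), 305 and 147 (R) (log2 difference 10.31 ± 0.91, adjusted p = 4.8e-05). Of 39 xyloglucan endotransglucosylase/hydrolases, which cut and rejoin xyloglucan chains, 15 rose and 4 fell. The probable hydrolase 12 (Unigene24188) went from 16.5 and 20.2 to 126 and 262 (log2 difference 3.40 ± 0.94, adjusted p = 0.02). That call did not hold with either D20 library or R replicate 2 left out (adjusted p from 0.1 without R replicate 2 to 0.14 without D20 replicate 1). One that fell (CL8199.Contig2, chosen after its values were seen) went from 52.2 and 68.6 to 1.47 and 1.97 (log2 difference -5.12 ± 0.80, adjusted p = 0.00088).

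Pectin-modifying enzymes had 57 of 129 unigenes risen and 8 fallen (median log2 difference 3.26, or 1.52 with bounds, and 31 higher and 9 lower at D75 than at DT), the risen members numbering 31 to 45 with 1 of the 4 libraries left out, fewest without D20 replicate 1. Of 55 pectinesterases, which strip methyl groups from pectin, 32 rose and 0 fell. Only 26 of the 55 were on this list, and 14 of those rose. Of 30 pectate lyases, all on the list, 19 rose and 1 fell. Polygalacturonase-1 non-catalytic subunit beta (CL7761.Contig1) went from 0.163 and 0.0832 to 304 and 264 (log2 difference 11.11 ± 0.64, adjusted p = 3.3e-05), against 219.6 and 169 at F. Cellulose synthesis and wall glycoproteins had 69 of 194 risen (35.6%) and 19 fallen (9.79%), beside 14.9% and 11% of all tested unigenes. Between D75 and DT, 28 were higher and 20 lower at D75. Fewer rises between D20 and R were called with any 1 of the 4 libraries left out. Classical arabinogalactan protein 9 (Unigene10100), a wall glycoprotein, went from 218 and 142 to 7.19 and 23.1 (log2 difference -3.56 ± 0.89, adjusted p = 0.012), a fall whose call was lost without D20 replicate 1 or R replicate 1 (adjusted p = 0.067 without D20 replicate 1, 0.12 without R replicate 1).

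More genes of the leaf surface rose than fell. Of 168 cuticle and wax unigenes 62 rose and 3 fell (median log2 difference 2.46, or 1.5 with bounds, and 43 higher and 5 lower at D75 than at DT), the risen members numbering 41 to 54 with 1 of the 4 libraries left out, fewest without D20 replicate 1. Of 47 3-ketoacyl-CoA synthases, which lengthen wax fatty acids, 19 rose and 2 fell. Non-specific lipid-transfer protein 2 (CL2675.Contig1) stood at 1218 and 915 (F), 795 and 414 (D75), 93.2 and 62.6 (D20), 691 and 162 (DT), 2608 and 1805 (R) (log2 difference 4.83 ± 0.75, adjusted p = 0.00085), so that both R libraries exceeded all others. Lipid-transfer protein 1 (CL14588.Contig1) stood at 2.10 and 72.2 (D20), 363 and 295 (R), with D20 replicates far apart, and did not pass the test (log2 difference 3.15 ± 1.17, adjusted p = 0.065). GDSL esterases and lipases, some of which polymerise cutin, had 34 of 86 risen and 1 fallen (19 higher and 3 lower at D75 than at DT), the risen members numbering 16 to 29 with 1 of the 4 libraries left out, fewest without R replicate 1. GDSL esterase/lipase APG (CL4964.Contig1) went from 0.0722 and 0 to 166 and 35.7, a ratio of 2708 (95% interval 486 to 107025). The fallen member, CPRD49 (Unigene33614), went from 54.4 and 51.9 to 19.7 and 14.8 (log2 difference -1.62 ± 0.39, adjusted p = 0.01). This did not hold with any 1 of the 4 libraries left out (adjusted p = 0.059 without D20 replicate 1, 0.05 without D20 replicate 2, 0.057 without R replicate 1, 0.11 without R replicate 2).

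Flavonoid and anthocyanin synthesis had 57 of 128 unigenes risen and 9 fallen (median log2 difference 2.32, and 29 higher and 12 lower at D75 than at DT), the risen members numbering 34 to 43 with 1 of the 4 libraries left out, fewest without D20 replicate 2. Chalcone synthase, its entry enzyme, rose in 3 of 4 unigenes. Contig CL10198.Contig3 stood at 50.2 and 104 (F), 2.27 and 2.62 (D75), 2.85 and 2.71 (D20), 8.54 and 5.73 (DT), 369 and 227 (R) (log2 difference 6.74 ± 0.58, adjusted p = 4.2e-05). Here R exceeded F in both libraries, and the dry leaf exceeded the slightly dehydrated one, with a log2 difference of D75 minus DT of -1.52 (adjusted p = 0.041). An anthocyanin xylosyltransferase (CL8029.Contig2) went from 1.84 and 4.53 to 309 and 228 (log2 difference 6.39 ± 1.23, adjusted p = 0.003), while D75 (4.40 and 81.9) and DT (24.2 and 5.19) overlapped. The list had 4 unigenes higher at R than at F, of 25 among all tested. Phenylpropanoid and lignin enzymes had 67 of 184 risen (36.4%) and 25 fallen (13.6%), beside 14.9% and 11% of all tested unigenes. Of these enzymes, 36 were higher and 19 lower at D75 than at DT. Cinnamoyl-CoA reductase 1 (Unigene10001), which commits precursors to lignin, went from 41.4 and 40.4 to 552 and 483 (log2 difference 3.66 ± 0.46, adjusted p = 0.00026), and caffeoylshikimate esterase (CL14363.Contig1) fell from 372 and 492 to 23.8 and 30.3 (log2 difference -4.00 ± 0.54, adjusted p = 0.00039).

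Aquaporins, the water channels of membranes, rose in 23 of 50 unigenes and fell in 3 (median log2 difference 2.73, and 21 higher and 3 lower at D75 than at DT). The summed level moved far less, from 7104 and 7519.8 at D20 to 10244 and 12214 at R, and the most abundant channels did not pass the test. TIP1-1 (CL14445.Contig3), a vacuolar channel, stood at 2851 and 1804 (D20), 4698 and 6461 (R) (log2 difference 1.26 ± 0.64, adjusted p = 0.16), and PIP1-2 (CL4872.Contig1) of the plasma membrane at 1315 and 3095 (D20), 2192 and 2444 (R) (log2 difference 0.07 ± 0.71, adjusted p = 0.96). Contigs of one plasma membrane cluster, chosen after their values were seen, split. PIP2-1 (CL7497.Contig6) stood at 80.1 and 63.9 (F), 43.8 and 710.4 (D75), 1.07 and 0.456 (D20), 32.4 and 3.61 (DT), 564 and 859.5 (R) (log2 difference 9.84 ± 1.51, adjusted p = 0.0008), and both R libraries exceeded F. PIP2-7 (CL7497.Contig4) stood at 1326 and 1194 (D20), 420.5 and 457 (R) (log2 difference -1.52 ± 0.48, adjusted p = 0.036). The call did not hold with any 1 of the 4 libraries left out (adjusted p = 0.14 without D20 replicate 1, 0.11 without D20 replicate 2, 0.2 without R replicate 1, 0.16 without R replicate 2). Reads shared between such contigs make their separate values uncertain. Of 15 NIP channels, which also pass small solutes, 8 rose, 7 of them in 1 cluster, and NIP2-1 (CL4439.Contig9, also chosen after its values were seen) was absent at D20 and at least 88.7-fold higher at R.

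Growth hormone genes rose more often than they fell. Auxin response and transport had 133 of 311 unigenes risen and 15 fallen (median log2 difference 2.24, or 1.59 with bounds, and 106 higher and 10 lower at D75 than at DT), the risen members numbering 68 to 113 with 1 of the 4 libraries left out, fewest without D20 replicate 1. Within it 30 of 61 Aux/IAA repressors, 25 of 46 SAUR growth proteins and 34 of 111 auxin response factors rose. Each of these families had fewer rises called with any 1 of the 4 libraries left out. The most abundant auxin-related member, auxin-induced in root cultures protein 12 (CL11299.Contig1), fell: it went from 335 and 410.1 to 132 and 155 (log2 difference -1.38 ± 0.47, adjusted p = 0.047). Its call was lost with any 1 of the D20, DT or R libraries left out (adjusted p from 0.059 without DT replicate 2 to 0.24 without R replicate 1). IAA16 (CL14249.Contig1) went from 57.4 and 50.6 to 296 and 286 (log2 difference 2.43 ± 0.43, adjusted p = 0.0018). Cytokinin genes had 39 of 110 risen and 5 fallen (21 to 30 with 1 of the 4 libraries left out, fewest without D20 replicate 1), among them the response regulator ARR4 (Unigene28319), from 0.688 and 0.391 to 27.8 and 18.7 (log2 difference 5.40 ± 0.62, adjusted p = 0.00016), and cytokinin hydroxylase (CL14027.Contig2), from 2.21 and 3.95 to 28.6 and 27.5 (log2 difference 3.18 ± 0.52, adjusted p = 0.0012). Brassinosteroid genes had 16 of 56 risen and 1 fallen (9 to 12 with 1 of the 4 libraries left out, fewest without D20 replicate 1, and 12 higher and 1 lower at D75 than at DT). The member that fell, BES1/BZR1 homolog 4 (CL12539.Contig1) of the family of brassinosteroid response factors, went from 58.1 and 60.2 to 25.8 and 22.6 (log2 difference -1.29 ± 0.39, adjusted p = 0.029). The call was lost with any 1 of the 4 libraries left out (adjusted p from 0.11 without D20 replicate 1 to 0.18 without R replicate 2). Homolog 2 (CL18500.Contig4) went from 16.7 and 14.3 to 34.6 and 35.5 (log2 difference 1.18 ± 0.36, adjusted p = 0.032). This call was lost with any 1 of the 4 libraries left out (adjusted p from 0.12 without D20 replicate 1 to 0.19 without D20 replicate 2). Of the cytokinin genes, 27 were higher and 1 lower at D75 than at DT.

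Gibberellin genes went in both directions. Of 85 unigenes 33 rose and 19 fell (25 higher and 7 lower at D75 than at DT), the falls numbering 6 to 13 with 1 of the 4 libraries left out, fewest without R replicate 2. GASA peptides, which gibberellin induces, rose in 12 of 18 unigenes with no fall. Snakin-2 (CL14335.Contig1) went from 6.43 and 10.5 to 131 and 165 (log2 difference 4.13 ± 0.81, adjusted p = 0.0032, and 0.051 without D20 replicate 1). Gibberellin-regulated protein 9 (CL5985.Contig4) stood at 309 and 247 (F), 109.5 and 112 (D75), 3.03 and 4.73 (D20), 5.31 and 3.57 (DT), 467 and 250.3 (R) (log2 difference 6.53 ± 0.54, adjusted p = 4.2e-05). The receptor GID1B fell in 15 of 21 unigenes with no rise, 13 of them contigs of a single cluster. GID1B had fewer falls called with any 1 of the 4 libraries left out. Its contig CL1558.Contig15, chosen after its values were seen, went from 8.25 and 8.39 to 1.27 and 1.30 (log2 difference -2.69 ± 0.46, adjusted p = 0.0014), and was not lower at D75 (2.76 and 5.98) than at DT (2.58 and 2.23).

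Cell division genes rose more often than they fell. Cell cycle and replication had 34 of 130 unigenes risen (26.2%) and 6 fallen (4.62%), beside 14.9% and 11% of all tested unigenes (median log2 difference 1.32). The risen members numbered 14 to 25 with 1 of the 4 libraries left out, fewest without D20 replicate 2. Between D75 and DT, 19 were higher and 10 lower at D75, shares near the 11% and 8.31% of all tested unigenes. Cyclins of types A, B and D rose in 25 of 63 unigenes and fell in 1. On this list were 50 of the 63, with 21 risen and 1 fallen. Fewer cyclins were called higher with any 1 of the 4 libraries left out. The most abundant members did not pass the test, with cyclin-B1-2 (CL3731.Contig2) at 69.0 and 60.1 (D20), 105 and 118 (R) and cyclin-dependent kinases regulatory subunit 1 (CL3242.Contig1) at 253 and 323 (D20), 258 and 238 (R). Histones rose in 41 of 151 and fell in 7 (36 higher and 1 lower at D75 than at DT), the risen members numbering 15 to 31 with 1 of the 4 libraries left out, fewest without D20 replicate 1. Both of the most abundant histone unigenes, taken from different clusters, were H3.3. Unigene18332 went from 411 and 541 to 124 and 85.4 (log2 difference -2.18 ± 0.65, adjusted p = 0.028). That call did not hold with any 1 of the 4 libraries left out (adjusted p from 0.074 without D20 replicate 1 to 0.18 without R replicate 2). CL837.Contig3 stood at 343 and 364 (D20), 370.4 and 286 (R) and did not pass the test. Tubulins, the subunits of microtubules, rose in 29 of 60 unigenes with no fall, and their summed level was 1732 and 1842 (F), 451 and 413 (D20), 1370.1 and 955 (R). Kinesins, motors that run on them, rose in 41 of 163 and fell in 3. Fewer tubulins and kinesins were called higher with any 1 of the 4 libraries left out. Actin-7 (Unigene37023) stood at 211 and 207 (D20), 180.1 and 156 (R) and did not pass the test.

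LEA genes fell more often than they rose. Of 97 LEA proteins and dehydrins 45 fell and 3 rose (median log2 difference -2.01, and 3 higher and 30 lower at D75 than at DT). The fallen members numbered 11 to 30 with 1 of the 4 libraries left out, fewest without R replicate 1. Their summed level was 43957 and 13471 (F), 32545 and 70329 (D75), 152862 and 128707 (D20), 53536 and 88670.0 (DT), 44406 and 52741 (R), with both R sums above both F sums. The LEA unigene CL12215.Contig1 (log2 difference -5.48) and an 18 kDa seed maturation protein-like unigene (Unigene19158, from 1399 and 1184 to 19.9 and 30.1, log2 difference -5.69 ± 0.84, adjusted p = 0.00064) fell steeply. The 18 kDa seed maturation protein CL511.Contig6 went from 1819.6 and 1705 to 32.8 and 43.7 (log2 difference -5.52 ± 0.78, adjusted p = 0.0005) but overlapped between D75 (158 and 349.6) and DT (139.5 and 340.4). The most abundant members stayed high: LEA protein 76 (CL2346.Contig2) stood at 9533 and 3477 (F), 110.4 and 11512 (D75), 13307 and 13474 (D20), 9416 and 11995 (DT), 11348 and 12234 (R) and did not pass the test (log2 difference -0.18 ± 1.22, adjusted p = 0.94). The desiccation-related dehydrin PCC6-19 (Unigene36452) at 21225 and 21402 (D20), 9134 and 9444 (R) did not pass it either (log2 difference -1.20 ± 0.79, adjusted p = 0.28).

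Early light-induced proteins fell in 15 of 22 unigenes and rose in 1 (median log2 difference -3.12, and 1 higher and 20 lower at D75 than at DT), and the fallen members numbered 1 to 7 with 1 of the 4 libraries left out, fewest without R replicate 1. The summed level was 245 and 186 (F), 152 and 1406 (D75), 40911 and 32096 (D20), 52523 and 68490.1 (DT), 3991 and 4598 (R). Both R sums stood above both F sums, and 3 members were higher at R than at F. ELIP 1 Unigene32083, whose primers are printed above, fell (log2 difference -3.70 ± 0.61, adjusted p = 0.0012) and was among the unigenes still above F (log2 difference R minus F 6.78, adjusted p = 0.013). Unigene32084 went from 2852 and 2352 to 339.9 and 441 (log2 difference -2.73 ± 0.72, adjusted p = 0.015). This did not hold with any 1 of the 4 libraries left out (adjusted p = 0.071 without D20 replicate 1, 0.051 without D20 replicate 2, 0.14 without R replicate 1, 0.087 without R replicate 2). The most abundant ELIP (CL3769.Contig7) stood at 2.62 and 2.40 (F), 2.77 and 75.7 (D75), 10841 and 6228 (D20), 16539 and 17912 (DT), 1507 and 1632 (R) and did not pass the test (log2 difference -2.44 ± 1.02, adjusted p = 0.098). A single ELIP, Unigene32087, chosen after its values were seen, ran against its family at 115 and 80.0 (F), 25.1 and 11.1 (D75), 0.576 and 0.707 (D20), 2.32 and 0.648 (DT), 113 and 56.5 (R) (log2 difference 7.02 ± 0.74, adjusted p = 9.9e-05).

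Genes of protective sugars fell more often than they rose. Galactinol, raffinose and stachyose synthases had 16 of 50 unigenes fallen and 4 risen (6 higher and 18 lower at D75 than at DT), and the falls numbered 15 with any 1 of the 4 libraries left out. Galactinol synthase 2 (CL8675.Contig3) stood at 2.24 and 0.454 (F), 5.06 and 11.9 (D75), 1016 and 1219.9 (D20), 392 and 502 (DT), 31.1 and 21.8 (R) (log2 difference -5.40 ± 0.70, adjusted p = 0.00031). Galactinol-sucrose galactosyltransferase, which makes raffinose itself, fell in its contig CL11895.Contig4 from 806 and 553 to 6.29 and 6.62 (log2 difference -6.72 ± 0.93, adjusted p = 0.00043) and in CL15513.Contig6 from 1418 and 1251 to 41.3 and 78.0 (log2 difference -4.48 ± 0.74, adjusted p = 0.0012). As a family the galactosyltransferases summed to 197 and 237 (F), 2835 and 2411 (D20), 292 and 405 (R). Galactinol synthases as a family moved little in sum, at 3728 and 1972 (F), 3262 and 3206 (D20), 2706 and 2701 (R), with 7 unigenes fallen and 1 risen. Galactinol synthase 1 (CL2862.Contig5, chosen after its values were seen) stood at 246 and 200.2 (D20), 691 and 659.9 (R) (log2 difference 1.60 ± 0.53, adjusted p = 0.043), a rise whose call was lost with any 1 of the D20, DT or R libraries left out (adjusted p from 0.055 without DT replicate 1 to 0.22 without D20 replicate 2). A galactosyltransferase 1 contig (CL1302.Contig6, chosen likewise) was absent at D20 and at least 17.3-fold higher at R, at 1.85 and 2.32.

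Starch breakdown was evenly split, with 23 of 69 unigenes risen and 21 fallen (9 higher and 14 lower at D75 than at DT), yet its summed level was 4524 and 4152 at D20 and 840.3 and 931 at R. Beta-amylases, which release maltose, fell in 21 of 33 unigenes (12 of them in 1 cluster) and rose in 7. Beta-amylase 1 (CL1706.Contig3) stood at 41.0 and 28.6 (F), 86.2 and 70.3 (D75), 1785 and 1771 (D20), 492 and 756 (DT), 68.5 and 78.9 (R) (log2 difference -4.59 ± 0.54, adjusted p = 0.00019). Inactive beta-amylase 9 (Unigene47216) went from 445 and 298 to 14.1 and 16.8 (log2 difference -4.59 ± 0.58, adjusted p = 0.00027). Proline dehydrogenase 2 (CL3680.Contig5), which degrades the osmolyte proline, was higher in the drying leaf and went from 10.5 and 17.9 to 0.333 and 0.235 (log2 difference -5.61 ± 0.59, adjusted p = 9.4e-05). All 3 called of 5 proline dehydrogenase unigenes fell, within 1 cluster.

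Abscisic acid signalling had members on both sides. Protein phosphatases 2C, some of which are its negative regulators, fell in 93 of 305 unigenes and rose in 29 (median log2 difference -0.93, and 36 higher and 49 lower at D75 than at DT), the falls numbering 25 to 56 with 1 of the 4 libraries left out, fewest without R replicate 1. Their summed level was 966 and 789 (F), 5519 and 4416 (D20), 1029 and 1086 (R). Protein phosphatase 2C 39 (CL3717.Contig3) went from 186 and 149 to 51.4 and 47.4 (log2 difference -1.76 ± 0.45, adjusted p = 0.013). The call did not hold with D20 replicate 1 or either R library left out (adjusted p from 0.084 without D20 replicate 1 to 0.1 without R replicate 2). The PYL receptors, which inhibit these phosphatases when they bind the hormone, rose in 12 of 30 unigenes and fell in 1. Zeaxanthin epoxidase, an early enzyme of the hormone's synthesis, fell in 18 of 37 unigenes and rose in 4, but its most abundant unigene (CL10949.Contig2) stood at 161 and 126 (D20), 133 and 164 (R) and did not pass the test. 9-cis-epoxycarotenoid dioxygenase, which makes the committed precursor, rose in 1 of 6 unigenes at low levels. Fewer PYL rises and zeaxanthin epoxidase falls were called with any 1 of the 4 libraries left out. ABSCISIC ACID-INSENSITIVE 5-like protein 7 (Unigene32434), a bZIP factor of the pathway, was higher in hydrated leaves at 161 and 82.1 (F), 110.5 and 151 (D75), 2.20 and 1.61 (D20), 4.88 and 1.90 (DT), 122 and 99.4 (R) (log2 difference 5.86 ± 0.61, adjusted p = 9.3e-05).

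Among transcription factors, heat stress factors fell in 40 of 88 unigenes and rose in 8 (median log2 difference -1.72, and 2 higher and 28 lower at D75 than at DT), the falls numbering 15 to 24 with 1 of the 4 libraries left out, fewest without R replicate 1. Class A activators fell in 13 of 35 with no rise, and in 3 without R replicate 1. Class B factors fell in 17 of 25, 13 of them contigs of 1 cluster, and rose in 4, all of 1 cluster, with 9 falls without R replicate 1. The most abundant class A unigene, A-2b (CL3610.Contig4), stood at 164 and 135 (D20), 29.7 and 56.8 (R) and did not pass the test (adjusted p = 0.075). B-2b (Unigene23918) went from 82.1 and 90.9 to 2.53 and 3.42 (log2 difference -4.85 ± 0.43, adjusted p = 5.2e-05). NAC factors fell in 37 of 149 and rose in 17 (20 higher and 29 lower at D75 than at DT), the falls numbering 14 to 22 with 1 of the 4 libraries left out, fewest without R replicate 1. NAC domain-containing protein 2 fell in 12 of 21 unigenes, of which Unigene12927 went from 209 and 194 to 6.85 and 9.51 (log2 difference -4.62 ± 0.61, adjusted p = 0.00036), Unigene6782 went from 208 and 211 to 14.3 and 18.7 (log2 difference -3.67 ± 0.68, adjusted p = 0.0024) and Unigene7210 went from 582 and 458 to 26.0 and 28.5 (log2 difference -4.25 ± 0.58, adjusted p = 0.00042). DREB and ERF factors were split, with 50 of 265 risen (18.9%) and 62 fallen (23.4%), beside 14.9% and 11% of all tested unigenes. Between D75 and DT, 46 were higher and 26 lower at D75, calls made for 11% and 8.31% of all. With 1 of the 4 libraries left out, the rises numbered 20 to 35 (fewest without D20 replicate 2). The falls then numbered 31 to 46 (fewest without R replicate 1). ERF3 (Unigene23713) went from 374 and 405 to 50.7 and 51.4 (log2 difference -2.93 ± 0.40, adjusted p = 0.00043), though it was not lower at D75 (142 and 162) than at DT (81 and 86.2). A second ERF3 contig (CL15585.Contig5) went from 263 and 315 to 87.1 and 74.8 (log2 difference -1.83 ± 0.49, adjusted p = 0.017). Its call was lost with any 1 of the 4 libraries left out (adjusted p from 0.057 without D20 replicate 1 to 0.13 without R replicate 2).

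Chaperones went in both directions. HSP70, HSP90 and ClpB chaperones fell in 19 of 107 unigenes (17.8%) and rose in 13 (12.1%), beside the 11% and 14.9% of all tested unigenes (8 higher and 15 lower at D75 than at DT), the falls numbering 5 to 10 with 1 of the 4 libraries left out, fewest without R replicate 1. Heat shock cognate 70 kDa protein 2 (CL1701.Contig2) went from 2622 and 2559 to 193 and 229.9 (log2 difference -3.61 ± 0.63, adjusted p = 0.0017), while heat shock protein 90-2 (CL4583.Contig7) stood at 296 and 327 (D20), 287 and 323 (R) and did not pass the test. Small heat shock proteins fell in 6 of 34 and rose in 2, whereas 24 of the same 34 were lower at D75 than at DT. The 17.9 kDa class II protein (CL1608.Contig2) went from 50.6 and 66.3 to 9.22 and 9.67 (log2 difference -2.63 ± 0.54, adjusted p = 0.0044, and 0.054 without R replicate 1). The 18.2 kDa class I protein (CL882.Contig3) stood at 3.80 and 6.77 (D75), 113 and 101 (D20), 943 and 318 (DT), 27.5 and 53.9 (R), highest at DT, and did not pass the test between R and D20 (log2 difference -1.39 ± 0.55, adjusted p = 0.079). Antioxidant enzymes rose in 24 of 151 (15.9%) and fell in 17 (11.3%), both near the shares of all tested unigenes (12 higher and 20 lower at D75 than at DT), with no fall called without R replicate 1. A probable phospholipid hydroperoxide glutathione peroxidase (CL11908.Contig1), the enzyme class that reduces lipid peroxides, went from 3158 and 3118 to 718 and 1118 (log2 difference -1.77 ± 0.57, adjusted p = 0.038). The call was lost with any 1 of the 4 libraries left out (adjusted p from 0.11 without R replicate 2 to 0.26 without R replicate 1).

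Splicing factors fell in 60 of 306 unigenes and rose in 9 (median log2 difference -0.59), the falls numbering 15 to 24 with 1 of the 4 libraries left out, fewest without R replicate 1. Serine/arginine-rich factors, which choose splice sites, supplied 33 of the falls from 15 clusters, and fewer with any 1 of the 4 libraries left out. Their summed level was 330.1 and 287 (F), 903 and 975 (D20), 338 and 344 (R). Between D75 and DT, 24 splicing factors were higher and 21 lower, with a median log2 difference of 0.27 against 0.32 for all tested unigenes, so a fall like that from D20 to R was not seen there. The factor RSZ22 (Unigene33604) went from 120.2 and 111 to 33.6 and 36.1 (log2 difference -1.73 ± 0.47, adjusted p = 0.018). This call was lost with any 1 of the 4 libraries left out (adjusted p from 0.068 without D20 replicate 2 to 0.13 without R replicate 1). The large U2af subunit B (Unigene43141) went from 135 and 125 to 40.4 and 52.2 (log2 difference -1.48 ± 0.42, adjusted p = 0.022). That call did not hold with any 1 of the 4 libraries left out (adjusted p from 0.08 without D20 replicate 2 to 0.18 without R replicate 1). Autophagy proteins fell in 15 of 71 and rose in 2 (1 higher and 10 lower at D75 than at DT), the falls numbering 3 to 8 with 1 of the 4 libraries left out, fewest without R replicate 1. Autophagy-related protein 8i (Unigene33449) went from 244 and 262 to 89.7 and 110.1 (log2 difference -1.34 ± 0.42, adjusted p = 0.034). This did not hold with any 1 of the 4 libraries left out (adjusted p from 0.11 without D20 replicate 1 to 0.21 without R replicate 1). Its relative 8f (Unigene28748), which coats the autophagosome, stood at 170.5 and 193 (D20), 135 and 126 (R) and did not pass the test. Proteasome subunits fell in 28 of 216 (13%, close to the 11% of all tested unigenes) and rose in 9 (5 higher and 42 lower at D75 than at DT), the falls numbering 9 to 12 with 1 of the 4 libraries left out, fewest without R replicate 1, with subunit alpha type-4 (CL9371.Contig1) at 234 and 240.1 (D20), 149 and 144 (R) and not past the test. Folding and retention proteins of the endoplasmic reticulum fell in 22 of 143 (15.4%) and rose in 15 (10.5%), beside the same shares of all tested unigenes (10 higher and 24 lower at D75 than at DT), the falls numbering 7 to 11 with 1 of the 4 libraries left out, fewest without R replicate 1. Protein disulfide-isomerase A6 (CL265.Contig3) went from 333 and 270.5 to 93.5 and 100.2 (log2 difference -1.64 ± 0.43, adjusted p = 0.016). The call did not hold with any 1 of the 4 libraries left out (adjusted p from 0.053 without D20 replicate 2 to 0.13 without R replicate 1). An ER lumen protein retaining receptor (CL545.Contig2) went from 117 and 93.3 to 29.3 and 33.6 (log2 difference -1.74 ± 0.56, adjusted p = 0.039). Its call was lost with any 1 of the D20, DT or R libraries left out (adjusted p from 0.058 without DT replicate 1 to 0.2 without R replicate 1).

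**Figure D4:**
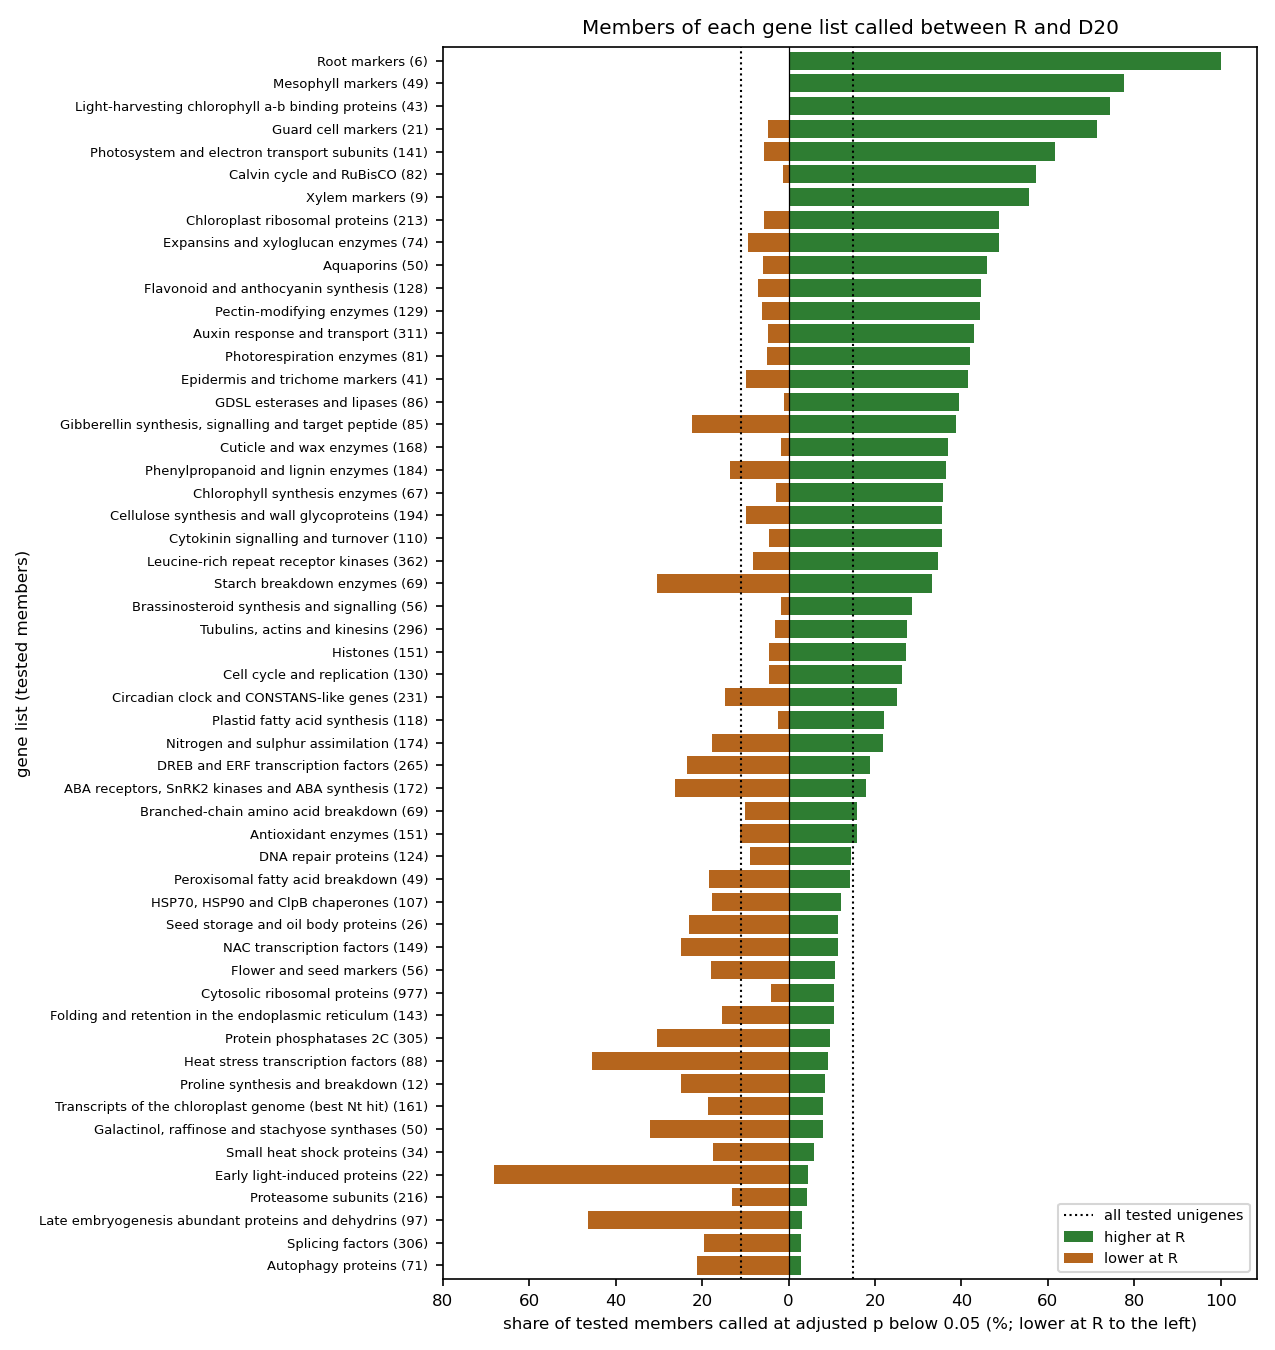
Share of each gene list's tested unigenes (x axis, percent) called higher (green, to the right) or lower (brown, to the left) at R than at D20, by list with its number of tested unigenes (y axis), and dotted lines at the shares of all tested unigenes, 14.9% and 11%. The root marker list, with all 6 risen, lies at the top, above mesophyll markers, light harvesting, guard cell markers, photosystems and the Calvin cycle. Early light-induced proteins, LEA proteins and heat stress factors have the longest bars to the left.

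Markers of leaf cell types were called as well. Mesophyll markers (RuBisCO small chain and chlorophyll a-b binding proteins, the same unigenes as above) rose in 38 of 49, with a summed level of 573 and 937 at D20 and 34812 and 30754 at R. Guard cell markers rose in 15 of 21 and fell in 1 (9 higher and 0 lower at D75 than at DT), with 8 of them at 0 in both D20 libraries, a summed level of 7.45 and 6.45 at D20 and 115 and 72.5 at R, and with risen members numbering 5 to 13 with 1 of the 4 libraries left out, fewest without D20 replicate 2. Of the 21, 13 were of the EPIDERMAL PATTERNING FACTOR family, and 8 of these rose. Of the other 8 markers, 7 rose and 1 fell. The family summed to 3.38 and 3.39 at D20 and 92.6 and 61.1 at R. Most of the list's sum at R came from this family, so the sum does not measure guard cells alone. EPIDERMAL PATTERNING FACTOR-like protein 9 (CL2796.Contig1), a signal that promotes stomata, went from 0.557 and 0.997 to 60.2 and 43.4 (log2 difference 6.03 ± 0.57, adjusted p = 6.1e-05). The anion channel SLAC1 (Unigene7391), which lets guard cells close the pore, went from 0.549 and 0.408 to 6.90 and 5.27 (log2 difference 3.65 ± 0.45, adjusted p = 0.00025). A second SLAC1 unigene (Unigene5623, chosen after its values were seen) was the marker that fell, from 3.03 and 2.31 to 0.124 and 0.313 (log2 difference -3.57 ± 0.64, adjusted p = 0.0021).

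Xylem markers rose in 5 of 9 with none lower (2 higher and 1 lower at D75 than at DT), and summed to 3.57 and 4.25 at D20 and 64.0 and 15.5 at R. Their rises numbered 2 to 5 with 1 of the 4 libraries left out. Xylem cysteine proteinase 2 (Unigene48693), active in dying vessel cells, went from 0.0817 and 0 to 36.8 and 9.0, a ratio of 545 (95% interval 97.3 to 21567). Epidermis and trichome markers rose in 17 of 41 and fell in 4 (9 higher and 1 lower at D75 than at DT), the risen members numbering 5 to 12 with 1 of the 4 libraries left out, fewest without R replicate 1, with sums of 53.8 and 56.4 at D20 and 87.2 and 49.9 at R that overlapped. Both of the most abundant ones, from different clusters, fell. GLABRA2 expression modulator (CL13395.Contig3) went from 9.32 and 8.49 to 2.10 and 1.98 (log2 difference -2.12 ± 0.57, adjusted p = 0.017). The call was lost with any 1 of the 4 libraries left out (adjusted p from 0.064 without D20 replicate 2 to 0.11 without R replicate 2). TRANSPARENT TESTA GLABRA 1 (CL13791.Contig2) went from 11.5 and 13.4 to 5.30 and 4.48 (log2 difference -1.34 ± 0.42, adjusted p = 0.034). This call was lost with F replicate 1 or any 1 of the 4 libraries left out (adjusted p from 0.051 without F replicate 1 to 0.2 without R replicate 2). Casparian strip proteins, the root markers, were present in these leaves and rose in 6 of 6 (2 higher and 0 lower at D75 than at DT), with sums of 1.95 and 4.09 at D20, 115 and 59.4 at R and 69.0 and 32.1 at F. Casparian strip membrane protein 2 (Unigene15372) was absent at D20 and at least 84.1-fold higher at R. Flower and seed markers rose in 6 of 56 (10.7%) and fell in 10 (17.9%), beside 14.9% and 11% of all tested unigenes. With 1 of the 4 libraries left out, the rises numbered 0 to 3 (fewest without D20 replicate 1) and the falls 0 to 5 (fewest without R replicate 1). Of these markers, AGL61 (Unigene38149) went from 37.9 and 27.2 to 9.40 and 7.89 (log2 difference -1.91 ± 0.59, adjusted p = 0.032). That call did not hold with any 1 of the 4 libraries left out (adjusted p from 0.075 without D20 replicate 2 to 0.17 without R replicate 2). The one phloem marker found, a SIEVE ELEMENT OCCLUSION B-like unigene (Unigene37802), had no fragment at D20 and 1.32 and 0 at R, and did not pass the test. The part of cell type proportions in the gene groups above was not tested.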

How the data were processed

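Leaf RNA of 10 libraries, 2 for each of 5 stages, had been made into TruSeq libraries and sequenced on an Illumina platform. The authors trimmed reads with SeqPrep and Sickle, assembled unigenes de novo with Trinity and quantified them with RSEM, and the aligner is not given in the sources used here. The deposited table held whole fragment counts per unigene and library, not normalised. It also held the FPKM that the authors computed from those counts, which unigene length and library total reproduced to within rounding. Every sample column was mapped to a library by its label (0 left unmapped), and libraries held 4522835 to 12734565 fragments.

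Unigenes that reached an FPKM of 1 in 2 or more libraries were tested with edgeR 4.0.16 (R 4.3.3), with TMM scaling, 1 coefficient per stage over all 10 libraries, the quasi-likelihood F test for R minus D20 and Benjamini-Hochberg adjustment over all 85267 tested unigenes. SE is the log2 difference divided by the square root of F, without its sign. The fit was tested on simulated counts. The exact permutation test of 2 against 2 libraries cannot go below p = 0.33 (two-sided) and was not used. Absence was set at a floor of 3 fragments per library for folds called "at least", and ratios over 1 to 3 pooled fragments have 95% counting intervals. Floors and intervals cover counting error only.

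Named unigenes were, per direction, the 12 DEGs with the largest fold (mean scaled FPKM of at least 10) and the 8 with the highest level, 1 per cluster and description, the 2 most abundant members of each of 54 gene lists, and the unigenes of the qPCR primers; others are marked as chosen after their values were seen. Comparison, lists and families were chosen with earlier results of these data known, and lists were trimmed on names after matching. Gene names come from database hits in the deposited annotation. Alternatives were RLE scaling, other filters, DESeq2 1.42.0, limma 3.58.1 on log2(FPKM + 1) or log2(FPKM + 0.1), the edgeR exact test, thinned counts, cluster sums, a replicate block and libraries left out. The limma settings took FPKM without the normalisation factors. Figures used matplotlib 3.10.9.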

Additional observations from a re-analysis of the deposited data

How the results depend on the processing

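The main test gave 2105 DEGs higher and 905 lower at R, and 12744 and 9337 unigenes at an adjusted p below 0.05. The count of DEGs higher and lower was 6207 and 3031 with no filter on low values, 1528 and 558 with filterByExpr, 3381 and 2823 with only the 4 libraries compared, 4760 and 3257 with DESeq2, 6211 and 4060 with the edgeR exact test, and 1840 and 329 with limma on log2(FPKM + 0.1). At an adjusted p below 0.05, the 4 libraries alone gave 17277 higher and 14322 lower, sums per assembly cluster 7633 and 5552 (fewer features), and limma on log2(FPKM + 0.1) 16357 and 7145, where the median log2 difference of all unigenes was 0.49 rather than 0.19 (0.32 with thinned counts). Chosen after seeing the data, leaving out F replicate 2 and D75 replicate 1 together gave 6620 and 5395 DEGs, and 17901 and 14396 unigenes below 0.05. The D20, DT and R libraries alone, also chosen after seeing the data, gave 6478 and 5831, and 17434 and 14853. With 1 library left out, DEGs ranged from 0 to 6837 higher and from 0 to 5093 lower, and unigenes below 0.05 from 5539 to 18070 and from 2696 to 14075. The limma settings also differ from the main test in scaling, as their FPKM was not divided by the normalisation factors. The cause of these changes in count was not tested. All DEGs kept their direction and an adjusted p below 0.05 in each alternative on unigenes, except 11 of the 2105 with limma on log2(FPKM + 1), where 2094 kept it.

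Same-numbered libraries did not deviate together (r from -0.21 to 0.086, and -0.052 between D20 and R), so the numbers name libraries only. The replicate block gave 2162 and 844 DEGs, and 11806 and 8339 unigenes below 0.05. Of 128 called unigenes that the naming rule took or that were chosen later, 89 kept the call in each of 22 settings on unigenes, 22 lost it only when a D20 or R library was left out, and 0 changed direction.

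Direction turned in 11 unigenes that had not passed the test. The limma settings used FPKM not divided by the normalisation factors, which were 0.801 and 0.771 at D20 and 0.982 and 1.023 at R. With limma on log2(FPKM + 1) or log2(FPKM + 0.1), the log2 difference became 0.38 for profilin-1 (CL18241.Contig1), 0.17 for LEA protein 76, 0.15 for cyclin-dependent kinases regulatory subunit 1, 0.32 for heat shock protein 90-2, 0.23 for histone H3.3 (CL837.Contig3) and 0.04 for actin-7. Profilin-1 also came to 0.02 (RLE, DESeq2 and both choices made after seeing the data), 0.06 (no filter), 0.04 (filterByExpr), 0.03 (the 4 libraries) and 0.11 (thinned counts). Heat shock protein 90-2 came to 0.04 (no filter), 0.01 (filterByExpr and the 4 libraries) and 0.08 (thinned counts), histone H3.3 to 0.002 (thinned counts) and zeaxanthin epoxidase to -0.004 (replicate block). With 1 of the 10 libraries left out, values that turned ranged from -0.11 to 0.24 for zeaxanthin epoxidase, -0.29 to 0.36 for profilin-1, -0.1 to 0.05 for heat shock protein 90-2, -0.42 to 0.82 for PIP1-2, -0.3 to 0.1 for histone H3.3, -1.67 to 0.2 for EIN3-binding F-box protein 2 (CL8725.Contig4), -0.4 to 0.78 for nitrite reductase and 0.0 to 5.26 for SIEVE ELEMENT OCCLUSION B-like Unigene37802.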

Other observations

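Receptor kinases with leucine-rich repeats, which sense peptides and microbial patterns at the cell surface, rose in 125 of 362 unigenes (34.5%) and fell in 30 (8.29%), the risen members numbering 63 to 90 with 1 of the 4 libraries left out, fewest without D20 replicate 1. Both of the most abundant ones were among those that fell. The flagellin receptor FLS2 (CL9120.Contig2) stood at 2.33 and 1.54 (F), 2.09 and 5.76 (D75), 90.3 and 70 (D20), 29.2 and 51.1 (DT), 3.36 and 5.55 (R) (log2 difference -4.17 ± 0.57, adjusted p = 0.00042), and MRH1 (Unigene13650) at 0.666 and 0.332 (F), 0.942 and 6.74 (D75), 103 and 65.8 (D20), 71.8 and 56.5 (DT), 5.92 and 10.5 (R) (log2 difference -3.36 ± 0.72, adjusted p = 0.0054, and 0.074 without R replicate 1). Nitrogen and sulphur assimilation was divided, with 38 of 174 risen (21.8%) and 31 fallen (17.8%), the falls numbering 11 to 17 with 1 of the 4 libraries left out, fewest without R replicate 1. The transporter NRT1/PTR FAMILY 2.11 (Unigene9911) stood at 9.08 and 9.70 (F), 4.57 and 30 (D75), 421 and 255 (D20), 129 and 169.8 (DT), 18.2 and 30.8 (R) (log2 difference -3.78 ± 0.74, adjusted p = 0.0032, and 0.053 without R replicate 1). Nitrite reductase (Unigene19347), which reduces nitrite in the chloroplast, stood at 182 and 80.5 (F), 58.9 and 242 (D75), 172 and 189.6 (D20), 200.1 and 226 (DT), 133 and 309.6 (R) and did not pass the test between R and D20. Chloroplast fatty acid synthesis rose in 26 of 118 unigenes (22%) and fell in 3, and no fall was called with any 1 of the 4 libraries left out.

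Circadian clock and CONSTANS-like genes rose in 58 of 231 unigenes (25.1%) and fell in 34 (14.7%), the risen members numbering 31 to 43 with 1 of the 4 libraries left out, fewest without D20 replicate 1. A CONSTANS-LIKE 4 zinc finger protein (Unigene28895) stood at 38.3 and 13.7 (F), 46.7 and 81.1 (D75), 353 and 289 (D20), 94.7 and 141 (DT), 94.1 and 94.1 (R) (log2 difference -1.77 ± 0.51, adjusted p = 0.024), and its call was lost with any 1 of the 4 libraries left out (adjusted p from 0.071 without D20 replicate 2 to 0.14 without R replicate 1). Seed storage and oil body proteins fell in 6 of 26 (23.1%) and rose in 3 (11.5%), the falls numbering 1 to 3 with 1 of the 4 libraries left out, fewest without R replicate 1. Oleosin 1 (CL4800.Contig2), a coat protein of oil bodies, stood at 0 and 0 (F), 0 and 0 (D75), 0.963 and 38.6 (D20), 23.2 and 39.0 (DT), 0.164 and 1.08 (R) (log2 difference -4.93 ± 1.38, adjusted p = 0.025), so that D20 replicate 1 stood apart from replicate 2, and the call was lost without D20 replicate 2 or either R library (adjusted p from 0.079 without R replicate 2 to 0.72 without D20 replicate 2). Fat breakdown had 7 of 49 risen (14.3%) and 9 fallen (18.4%), beside 14.9% and 11% of all tested unigenes, the falls numbering 3 to 4 with 1 of the 4 libraries left out, fewest without D20 replicate 2. DNA repair had 18 of 124 risen (14.5%) and 11 fallen (8.87%), and breakdown of branched-chain amino acids 11 of 69 (15.9%) and 7 (10.1%), shares close to those of all tested unigenes. Branched-chain aminotransferase 3 (CL4107.Contig1) stood at 14.2 and 12.7 (F), 9.36 and 10.9 (D75), 31.0 and 36.1 (D20), 13.2 and 22.1 (DT), 11.6 and 14.6 (R) (log2 difference -1.36 ± 0.38, adjusted p = 0.02), lost with any 1 of the 4 libraries left out (adjusted p from 0.069 without D20 replicate 1 to 0.17 without R replicate 1).

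Among the abundant DEGs that fell, CYSTM1 family protein A (CL3154.Contig1) stood at 0.954 and 0.261 (F), 1.14 and 4.13 (D75), 1379.7 and 1466 (D20), 974 and 1195 (DT), 60.5 and 55.1 (R) (log2 difference -4.62 ± 0.60, adjusted p = 0.00032), with a log2 difference of -8.68 (adjusted p = 0.00017) for D75 minus DT. The F-box protein SKIP20 (CL12548.Contig2) stood at 17.5 and 11 (F), 53.2 and 83.3 (D75), 1129.5 and 1123 (D20), 239 and 432 (DT), 38.5 and 53.5 (R) (log2 difference -4.61 ± 0.56, adjusted p = 0.00022), and LURP-one-related 15 (Unigene42178) at 7.69 and 1.80 (F), 21.1 and 51.1 (D75), 1144 and 922 (D20), 278 and 361 (DT), 37.1 and 59.8 (R) (log2 difference -4.41 ± 0.69, adjusted p = 0.0009). Each of the 3 had both R libraries above both F libraries. Their R libraries lay below both D20 libraries, but R and D20 did not overlap in any of the 905 fallen DEGs, from which these were chosen.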
